A study of Mus musculus with 28 samples.

Results

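The erythroid miRNAs miR-451a, miR-144 and miR-486a were followed in blood plasma of mice of 5 ages. They were the 5 rows mmu-miR-451a, mmu-miR-144-3p, mmu-miR-144-5p, mmu-miR-486a-5p and mmu-miR-486a-3p, taken by name from a table of 80668 RNAs that held 1966 miRNA rows. The donors were 14 female wild-type mice of the inbred strain C57BL/6N, of which 3 were aged 2 months, 4 were aged 6, 3 were aged 8, 2 were aged 12 and 2 were aged 18 months. Plasma of each mouse was cleared of cells and platelets by centrifugation and then split by ultracentrifugation into a pellet enriched in extracellular vesicles (EV) and the EV-depleted fluid, called plasma below, which gave 28 small RNA libraries. No mouse carried an engineered allele or received a treatment according to the labels, and a pellet enriched in EVs can hold other particles that sediment with them. The plasma labels of replicates 2 and 3 at 2 months share 1 code, so these libraries were matched to their EV partners by replicate number only.

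MicroRNAs are short RNAs that guide Argonaute proteins to messenger RNAs, which they recognise mainly through the seed, bases 2 to 8 from the 5′ end. miR-144 and miR-451a come from 1 primary transcript that the transcription factor GATA1 drives in erythroid cells. The hairpin of miR-451a is cut by Argonaute 2 itself rather than by Dicer and leaves a single mature arm, whereas the hairpins of miR-144 and miR-486a each give a 5p and a 3p arm. miR-486 lies within Ank1, which encodes ankyrin 1 of the red cell membrane skeleton, and is also abundant in muscle. Since miR-451a is so abundant in red cells, its ratio to miR-23a-3p is in common use as a sign of red cell lysis in plasma.

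In GRCm38 with GENCODE M21, Mir144 lay at chr11:78073005-78073070 and Mir451a at chr11:78073170-78073241, both on the plus strand, with 99 bases between them and no exon of another gene except the antisense Mir451b over Mir451a. Mir486 lay at chr8:23142555-23142682 on the plus strand, in an intron of Ank1, opposite Mir3107, the gene of miR-486b, at chr8:23142573-23142662 on the minus strand. RefSeq mature sequences (GRCm38.p6) were matched for 3 of the 5 rows, which span chr11:78073186-78073207 for miR-451a, chr11:78073047-78073066 for miR-144-3p and chr11:78073010-78073032 for miR-144-5p. They are printed 5′ to 3′ because they show that the cluster carries 3 unrelated seeds, which stand in capitals.
mmu-miR-451a: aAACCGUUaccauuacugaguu
mmu-miR-144-3p: uACAGUAUagaugauguacu
mmu-miR-144-5p: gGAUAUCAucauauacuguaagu
Of 1679 mature names in the sequence table, 0 others shared any of these seeds. Rows mmu-miR-486a-5p and mmu-miR-486b-5p cannot be read as separate miRNAs here, since their counts lay within -5.82% and 1.74% of each other (486b against 486a) in every library. The row mmu-miR-486b-3p followed mmu-miR-486a-3p less closely, with a median difference in count of -33.3% in plasma and -33.5% in EVs. The antisense mmu-miR-451b had 1 count in all EV libraries together and 0 in plasma, where a count of 0 allows up to 3 counts over the pooled libraries.

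Plasma libraries held 928651 to 23905651 counts and EV libraries 4764338 to 52753818, of which only 0.222% to 0.652% were miRNA counts. That left 4977 to 82646 miRNA counts in a plasma library and 20063 to 203624 in an EV library. All 5 rows reached 1 RPM in all 28 libraries, and each passed the filter on low values. RPM, the unit in which the study scales reads to mapped reads, is the deposited count after division by 1 number per library. That number is not the library's total in the count table, and which mapped reads it counts is not spelled out, so the share of miRNA counts is given beside it. Intervals on shares are Wilson intervals at 95% and cover counting error only. In cell-free plasma, a different amount of red cell material and a different miRNA content of that material cannot be told apart.

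The 5 rows together made up 12.0% to 32.8% of the miRNA counts of a plasma library (median 19.6%) and 9.06% to 30.9% of those of an EV library (median 18.0%). miR-451a was the most abundant miRNA in 14 of 14 plasma libraries and in 8 of 14 EV libraries, and its lowest rank was 4. Its share averaged 16.4% ± 4.59 (SD, n = 14) in plasma and 14.9% ± 5.47 (SD, n = 14) in EVs. miR-144-3p held 2.30% ± 0.718 in plasma and 2.61% ± 0.686 in EVs (SD, n = 14 each), and its partner arm miR-144-5p held 0.308% ± 0.112 and 0.359% ± 0.129. miR-486a-5p held 1.40% ± 0.540 in plasma and 0.793% ± 0.242 in EVs. The scarcest row was miR-486a-3p, with 0.0780% ± 0.0499 in plasma and 0.105% ± 0.0525 in EVs, and with as few as 1 count in a plasma library and 18 counts in an EV library.

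**Figure D1:**
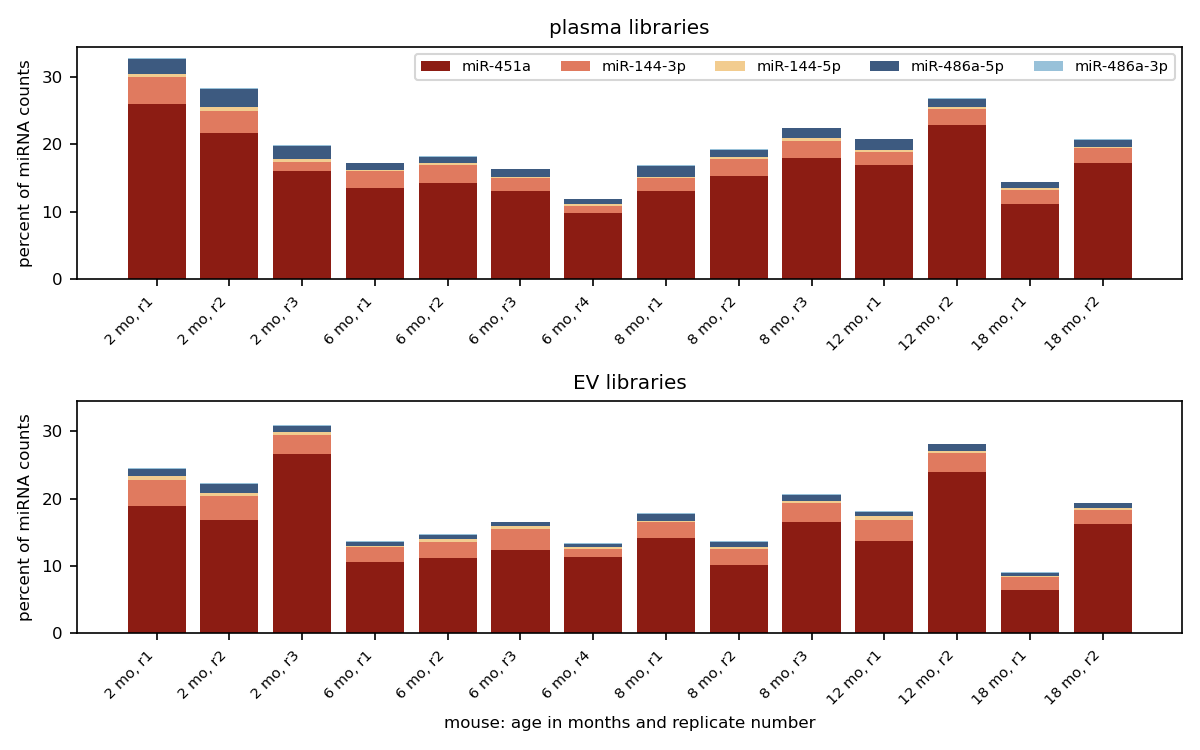
Share of the miRNA counts (percent, vertical axis) held by each of the 5 rows in each plasma library (top) and EV library (bottom), with 1 stacked bar per mouse in order of age. miR-451a makes up most of every bar, and the bars reach from 9.06% in an EV library at 18 months to 32.8% in a plasma library at 2 months.

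The level of miR-451a spread widely between mice of 1 age in both fractions. By plasma RPM, the 2-month mice had 2378, 1095 and 933 RPM, the 6-month mice 1149, 638, 515 and 720.1 RPM, the 8-month mice 617, 687 and 644 RPM, the 12-month mice 833 and 2284 RPM, and the 18-month mice 835 and 1346 RPM. By EV RPM, the 2-month mice had 1252, 1115 and 2977 RPM, the 6-month mice 511, 375, 541 and 946 RPM, the 8-month mice 646, 457 and 708 RPM, the 12-month mice 1554 and 3515 RPM, and the 18-month mice 529 and 1869.7 RPM. By mean RPM, the highest levels thus lay at 2 and 12 months and the lowest at 6 and 8 months in both fractions. Each group overlapped its neighbour when the 10 groups of age and fraction were put in order of that mean. Mean shares of miRNA counts did not keep this order. They were 11.4% in EVs and 14.2% in plasma at 18 months, below the 13.6% and 15.5% at 8 months. In EVs, mean RPM of miR-191-5p, a miRNA outside the 5 rows, was also highest at 12 months and lowest at 6 and 8 months. In plasma it was not. As a share of miRNA counts the extremes were 26.6% (95% interval 26.3 to 26.9%) in EVs of replicate 3 at 2 months and 6.46% (6.25 to 6.68%) in EVs of replicate 1 at 18 months. Replicate 2 at 12 months had the highest EV level and, at 22.9% in plasma and 23.9% in EVs, similar shares in both fractions.

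miR-144-3p, the more abundant arm of miR-144 in every library, had 75.5 to 356 RPM in plasma libraries and 82.4 to 431 RPM in EV libraries. Its EV values at 12 months, 351 and 431 RPM, lay above those of the next group in order, the EVs at 2 months (252, 230 and 318 RPM), without overlap. As shares the same groups did not keep that order, with 3.02% ± 0.124 (SD, n = 2) at 12 months and 3.37% ± 0.496 (SD, n = 3) at 2 months. In RPM, miR-23a-3p (604 to 626 RPM) and miR-191-5p (69.4 to 108 RPM), which are not among the 5 rows, had the same gap in EVs at 12 months. How many of all miRNAs have such a gap was not counted. miR-144-5p had 9.32 to 50.1 RPM in plasma libraries and 10.1 to 62.3 RPM in EV libraries, and its neighbouring groups all overlapped.

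miR-486a-5p differed from the rows of the miR-144/451a cluster in that its highest group was plasma at 2 months. In plasma it had 196, 133 and 114 RPM in the 2-month mice, 85.1, 42.8, 43.0 and 60.3 RPM in the 6-month mice, 74.9, 49.2 and 53.6 RPM in the 8-month mice, 78.3 and 121 RPM in the 12-month mice, and 67.0 and 80.9 RPM in the 18-month mice. In EVs it had 72.5, 83.6 and 105 RPM in the 2-month mice, 31.1, 21.7, 25.0 and 45.9 RPM in the 6-month mice, 46.9, 29.97 and 39.3 RPM in the 8-month mice, 71.6 and 139 RPM in the 12-month mice, and 34.9 and 87.1 RPM in the 18-month mice. As a share of miRNA counts, the plasma libraries at 2 months (2.15%, 2.64% and 1.97%) lay above all older plasma libraries, the highest of which was 1.60% (1.34 to 1.91%) in replicate 1 at 12 months. In RPM this gap was not present, since 1 plasma library at 12 months overlapped the 2-month libraries.

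miR-486a-3p, the minor arm, was again highest at 2 months. In plasma it had 15.9, 9.22 and 6.14 RPM in the 2-month mice, between 1.70 and 3.01 RPM in the 6-month mice, between 3.03 and 4.95 RPM in the 8-month mice, 1.99 and 7.48 RPM in the 12-month mice, and 2.30 and 3.48 RPM in the 18-month mice. In EVs it had 13.8, 14.9 and 10.5 RPM in the 2-month mice, between 3.67 and 4.46 RPM in the 6-month mice, between 3.40 and 6.36 RPM in the 8-month mice, 8.08 and 11.3 RPM in the 12-month mice, and 4.71 and 9.68 RPM in the 18-month mice. Some plasma libraries rest on very few reads, with 1 count for replicate 1 at 6 months and 3 counts for replicate 1 at 12 months.

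**Figure D2:**
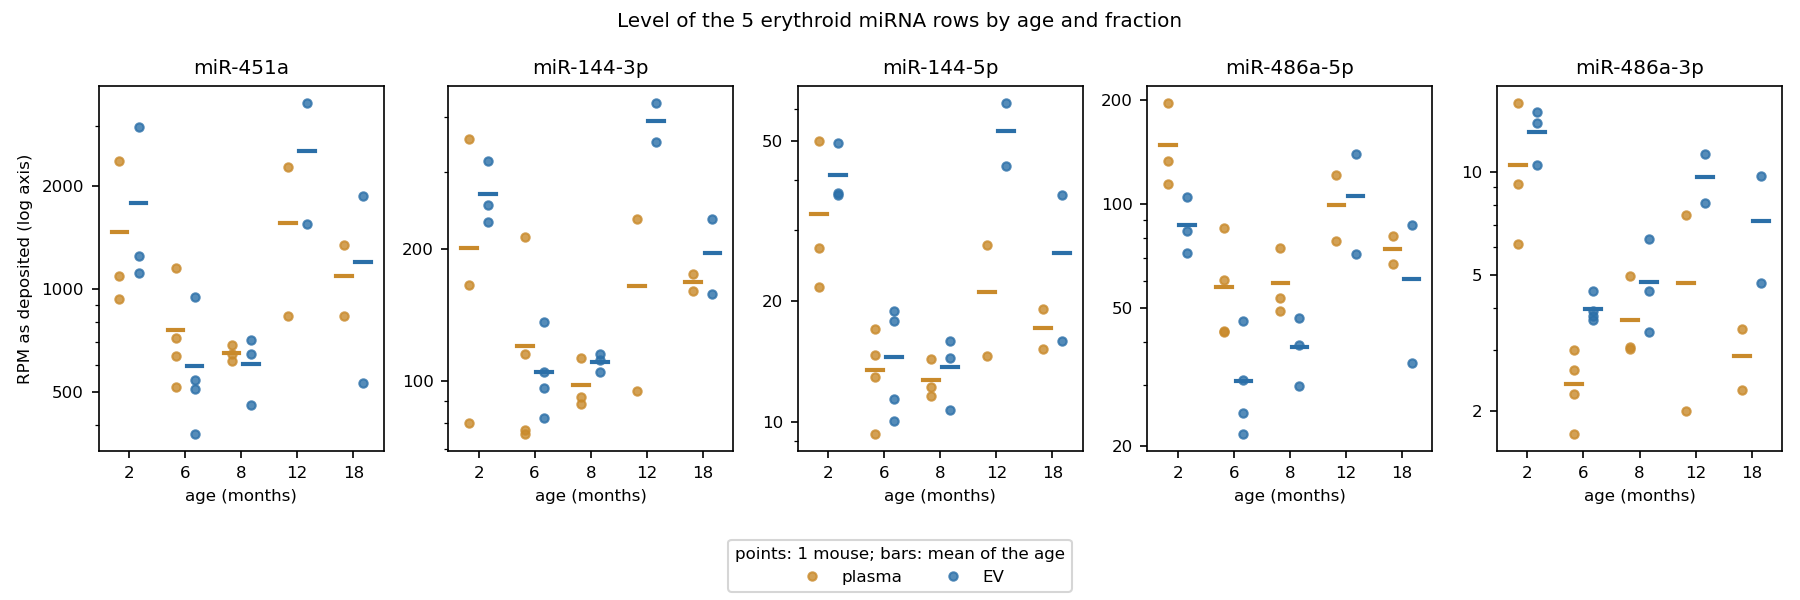
Level of each of the 5 rows (RPM as deposited, log axis) against age in months, with 1 point per mouse, plasma in ochre, EVs in blue, and a bar at the mean of each age. In RPM the means lie lowest at 6 and 8 months for all rows in EVs, while the single mice of an age spread widely at 2, 12 and 18 months. As shares of miRNA counts, which are not plotted here, the EV mean of each row is lowest at 18 months.

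The first comparison asked whether the levels of the erythroid miRNAs, relative to the other reads of a library, differed between EVs and EV-depleted plasma. Each library is scaled to its own reads. The values therefore do not give how the molecules of a miRNA were divided between pellet and fluid. miR-486a-5p was lower in EVs, and it was the only 1 of the 5 rows called in the model over 28 libraries with age as a covariate. Its log2 difference, EVs against plasma, was -0.77 ± 0.20 (SE), or 0.587 times the plasma level, with an adjusted p of 0.00588 by edgeR's quasi-likelihood test. On the same scale, log2 of TMM-normalized CPM (counts scaled to a common library size), it was lower in EVs in 14 of 14 mice, by between 0.40 and 1.40. Of the 333 miRNAs tested, 61 passed the same threshold, or 18.3%, so that 1 of 5 rows is close to the share of all miRNAs. Of all miRNAs 34 (10.2%) were lower and 27 (8.11%) higher in EVs. The call was lost when libraries were scaled by the RPM divisor in place of TMM (log2 difference -0.51, adjusted p = 0.239 by edgeR) and was present with that scaling once each mouse was a block (-0.60, adjusted p = 0.00864). In RPM, miR-486a-5p was lower in EVs in all but 2 of 14 mice.

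The row named for the other arm of miR-486a lay on the other side. miR-486a-3p had a log2 difference of 0.41 ± 0.24 (SE) and was not called in the model without a block (adjusted p = 0.241, edgeR). With the mouse as a block, which uses the fact that both fractions come from 1 animal, it was higher in EVs, with a log2 difference of 0.44 ± 0.14 (SE) and an adjusted p of 0.0185 by edgeR. Under that block 88 of the 333 miRNAs (26.4%) were called. miR-486a-3p was higher in EVs in 11 of 14 mice in log2 CPM and in 12 of 14 in RPM. The rows of miR-486b had log2 differences of -0.73 ± 0.20 (SE, 5p) and 0.37 ± 0.27 (SE, 3p).

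For the miR-144/451a cluster no difference between fractions passed the threshold. miR-451a differed by -0.10 ± 0.21 (SE) on the log2 scale with an adjusted p of 0.794 (edgeR), miR-144-3p by 0.19 ± 0.18 with 0.509, and miR-144-5p by 0.24 ± 0.19 with 0.42. Without a block, the 95% intervals reached from -0.52 to 0.31 for miR-451a, -0.17 to 0.55 for miR-144-3p and -0.13 to 0.60 for miR-144-5p. Differences of that size are thus compatible with these libraries. With the mouse as a block, they reached from -0.36 to 0.06 for miR-451a, 0.02 to 0.41 for miR-144-3p and 0.04 to 0.40 for miR-144-5p. None was called under the block (adjusted p = 0.321, 0.118 and 0.0832 in the same order, edgeR). Within mice, miR-451a was higher in EVs in 3 of 14 mice in log2 CPM, and each arm of miR-144 in 11 of 14. In RPM miR-451a was higher in EVs in 9 of 14 mice, miR-144-3p in 9 and miR-144-5p in 10, so the side on which most mice lay depended on the scaling for miR-451a. Replicate 3 at 2 months, 1 of the mice of uncertain pairing, had the largest difference above 0 for miR-451a (0.92) and miR-144-3p (1.23). For miR-451a the largest in size was -0.95, in replicate 1 at 18 months.

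**Figure D3:**
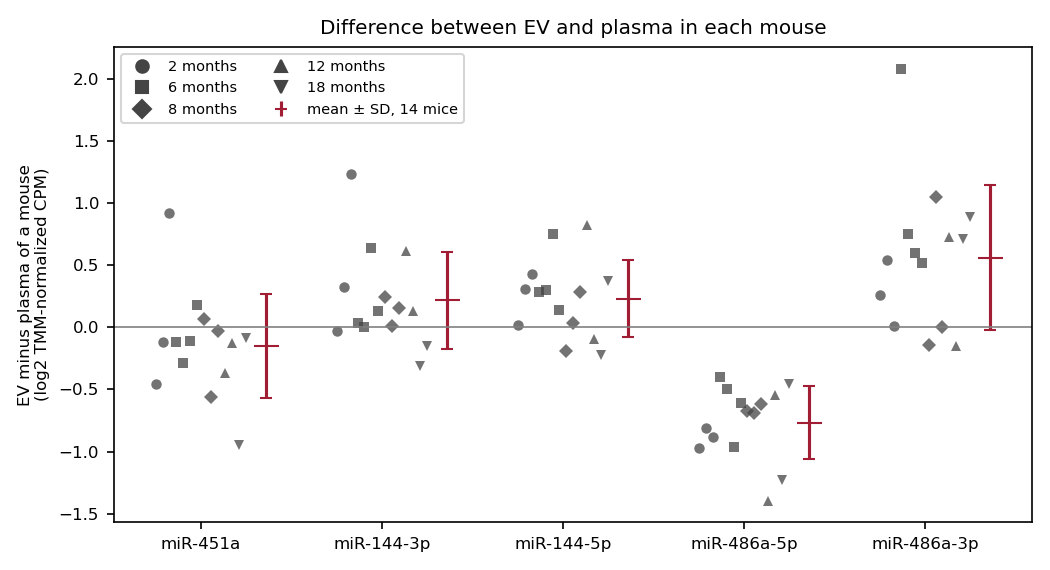
Difference between the EV and the plasma library of each mouse (log2 TMM-normalized CPM, vertical axis) for each of the 5 rows, with 1 symbol per mouse shaped by age and the mean ± SD of the 14 mice in red. All 14 points of miR-486a-5p lie below 0, between -1.40 and -0.40, while the points of the other rows lie on both sides of 0.

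The arms of miR-486a were then compared with each other within a library, which does not depend on how libraries are scaled. The 5p counts cannot be assigned to miR-486a rather than miR-486b, so the ratio is between named rows and need not be that of 1 hairpin. In plasma the ratio of miR-486a-5p to miR-486a-3p (counts + 0.5) had a lowest value of 12.3, a median of 17.9 and a highest value of 33.9, and in EVs these values were 4.68, 8.45 and 12.3. The ranges touched only at their ends, where the highest EV library, replicate 2 at 12 months, was level with the lowest plasma library, replicate 1 at 2 months. Within a mouse the log2 ratio was lower in EVs by 1.28 on average, with a mean difference of -1.28 ± 0.54 (SD, n = 14 mice; two-sided exact permutation test over sign changes, p = 0.000122, the smallest that 14 mice can give; adjusted over 3 ratios, p = 0.000366). It was lower in EVs in 14 of 14 mice, from -2.05 in replicate 1 at 6 months, whose plasma library has 1 count of miR-486a-3p, to -0.38 in replicate 2 at 12 months. The geometric mean ratio in EVs was thus 0.411 times that in plasma.

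To set this beside other hairpins, the same ratio of 5p to 3p was taken for every miRNA with both arms past the filter, a comparison chosen after the values of miR-486a were seen. Of 48 hairpins 5 (10.4%) passed the threshold after adjustment over all 48, all with less 5p relative to 3p in EVs. They were miR-486a, miR-486b, miR-215, miR-574 and miR-142a. The 5p rows of miR-486a and miR-486b have nearly the same counts, so these hairpins are not separate results. The ratio of miR-142a was also lower in EVs in 14 of 14 mice (-0.69). miR-486a (adjusted p = 0.00195, exact permutation test) had the second largest difference after miR-3068 (-1.66, adjusted p = 0.0603), and the overlapping miR-486b had the next (-1.24). The median difference over the 48 hairpins was -0.08. miR-144 stood near the other end, at place 46 of 48 by size.

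For miR-144 the ratio of 3p to 5p had a median of 7.85 in plasma, with a range of 3.68 to 12.0, and a median of 7.22 in EVs, with a range of 5.09 to 10.4. The within-mouse difference was -0.01 ± 0.32 (SD, n = 14) on the log2 scale, with 10 mice lower and 4 higher in EVs, and did not pass the exact permutation test (p = 0.926, adjusted over 3 ratios p = 0.926). The ratio was lowest in plasma of replicate 3 at 2 months (3.68), where 704 counts of miR-144-3p stood against 191 of miR-144-5p.

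The ratio of miR-451a to miR-23a-3p, a miRNA that red cells hold little of, was examined as the sign of red cell material. The plasma libraries spanned 2.02 to 11.8 with a median of 4.05, and the EV libraries 1.37 to 7.22 with a median of 3.23. It was lower in EVs in 12 of 14 mice, with a mean log2 difference of -0.49 ± 0.53 (SD; exact permutation test, p = 0.00574, adjusted over 3 ratios p = 0.00861). The mice that went the other way were replicate 3 at 2 months (0.84) and replicate 3 at 6 months (0.03). miR-23a-3p itself had a log2 difference of 0.35 ± 0.13 (SE; adjusted p = 0.0681, edgeR), and was called higher in EVs with the mouse as a block (adjusted p = 0.00267). Against miR-191-5p as the reference the difference of miR-451a was -0.06 and did not pass (exact permutation test, p = 0.700), so the lower ratio in EVs rests on the choice of miR-23a-3p. By age, the highest ratios were in plasma at 2 months, 11.02 and 11.8 for replicates 1 and 2, against 3.69 for replicate 3, and the lowest were in EVs of replicate 4 at 6 months (1.37) and replicate 1 at 18 months (1.43).

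**Figure D4:**
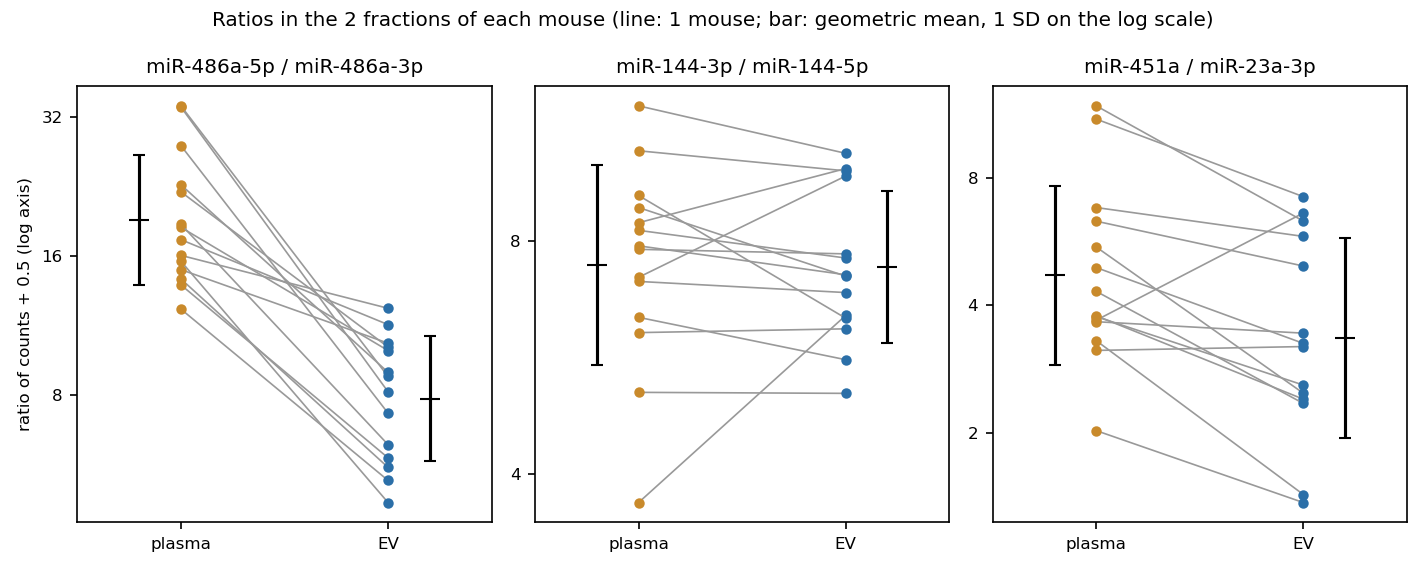
Ratios of counts + 0.5 (log axis) of miR-486a-5p to miR-486a-3p, miR-144-3p to miR-144-5p and miR-451a to miR-23a-3p in plasma (ochre) and EVs (blue), with a line joining the fractions of each of 14 mice and black bars at the geometric mean and 1 SD on the log scale. All 14 lines of miR-486a fall from plasma to EVs, from medians of 17.9 to 8.45, whereas those of miR-144 run in both directions.

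The second comparison asked whether the erythroid miRNAs shifted with age in either fraction. None of the 5 rows passed the threshold for a linear trend. All 5 slopes were below 0 in plasma and in EVs with TMM scaling, but in EVs 4 of them lay above 0 with the RPM divisor, which raised the median slope of all miRNAs to 0.05 log2 per month. In plasma the largest slope was that of miR-486a-3p, with a log2 change of -0.10 ± 0.03 (SE) per month (adjusted p = 0.174, edgeR), followed by miR-486a-5p with -0.05 ± 0.02 (0.289) and miR-144-5p with -0.05 ± 0.02 (0.283). These 3 had an unadjusted p under 0.05. miR-144-3p and miR-451a had plasma slopes of -0.01 ± 0.02 each, with adjusted p of 0.84 and 0.857. In EVs the slopes were -0.07 ± 0.03 for miR-486a-3p (adjusted p = 0.305), -0.04 ± 0.03 for miR-144-5p (0.48) and -0.04 ± 0.03 for miR-486a-5p (0.48), while miR-144-3p and miR-451a had -0.03 ± 0.02 (0.537) and -0.03 ± 0.03 (0.64).

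Over all miRNAs, edgeR called 0 of 304 in plasma (0%), with 47 at an unadjusted p under 0.05 and 2 by DESeq2, and 1 of 307 in EVs (0.326%), with 37 at an unadjusted p under 0.05 and 5 by DESeq2. The median slope of the 5 rows was -0.05 in plasma and -0.04 in EVs, beside 0.00 (plasma) and 0.00 (EVs) over all miRNAs. The direction of the plasma slopes of miR-451a and miR-144-3p rested on replicate 1 at 2 months, without which they were 0.01 each. The interaction of age and fraction, which tests whether the slope differs between fractions, was between -0.03 and 0.02 per month for the 5 rows, each with an adjusted p of 0.997 (edgeR, 0 of 333 called or 0%, 11 at an unadjusted p under 0.05, 0 by DESeq2).

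**Figure D5:**
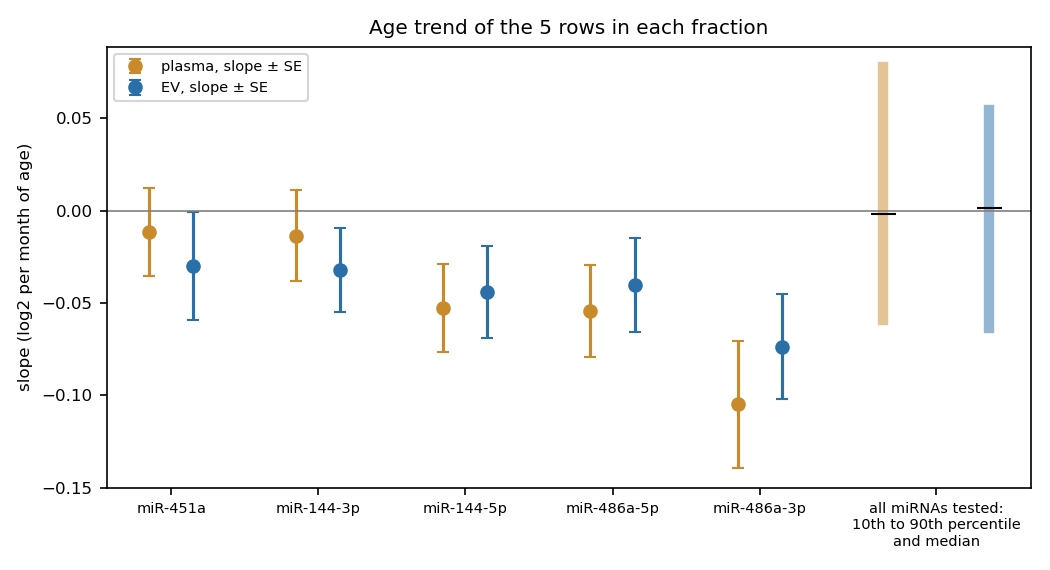
Slope with age (log2 per month, vertical axis) of each of the 5 rows in plasma (ochre) and EVs (blue), as the edgeR estimate ± SE, beside bars from the 10th to the 90th percentile of all miRNAs tested with their median in black. All 10 slopes lie below 0, and that of miR-486a-3p lies below the bar in both fractions, without passing the threshold.

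In RPM, no row's Spearman's rho with age passed the threshold. In plasma it was -0.03 for miR-451a, 0.11 for miR-144-3p, -0.21 for miR-144-5p, -0.24 for miR-486a-5p and -0.30 for miR-486a-3p, over 14 mice, with permutation p adjusted over 304 miRNAs between 0.844 and 1. Pearson's r was -0.01, -0.04, -0.32, -0.35 and -0.45 in the same order, with adjusted permutation p between 0.589 and 0.992. In EVs rho was 0.04 for miR-451a, 0.15 for miR-144-3p, -0.01 for miR-144-5p, 0.02 for miR-486a-5p and -0.13 for miR-486a-3p, with permutation p adjusted over 307 miRNAs between 0.818 and 0.979. The EV values depended on the scale, since in TMM-normalized CPM rho in EVs reached from -0.51 (miR-486a-3p) to -0.31 (miR-451a), and as shares of miRNA counts from -0.56 (miR-486a-3p) to -0.31 (miR-451a), with adjusted permutation p between 0.479 and 0.694. In plasma, rho of miR-486a-3p was -0.43 in CPM (adjusted permutation p = 0.497) and -0.50 as a share (0.474). In RPM, r in EVs was 0.08, 0.14, 0.03, 0.06 and -0.22 in the same order, with adjusted permutation p between 0.647 and 0.933. The mice farthest from the median age were those of 18 months, and without them r in plasma was -0.05, -0.22, -0.43, -0.43 and -0.49 and r in EVs was 0.14, 0.22, 0.09, 0.07 and -0.36. Of all miRNAs, 0 of 304 in plasma and 0 of 307 in EVs (0% each) passed, with 17 and 24 at an unadjusted p under 0.05.

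How the rows varied together is given as a description, with no test, since the libraries share mice and ages. After the mean of each fraction was taken off the log2 CPM, miR-451a had rho of 0.84 with miR-486a-5p, 0.79 with miR-144-3p, 0.77 with miR-144-5p and 0.64 with miR-486a-3p over 28 libraries. The lowest pair was miR-144-3p with miR-486a-3p (0.55), and the rows named as arms of 1 hairpin had 0.73 for miR-144 and 0.82 for miR-486a. Between the EV and plasma libraries of the 14 mice, rho was 0.86 for miR-486a-5p, 0.84 for miR-451a, 0.82 for miR-486a-3p, 0.74 for miR-144-5p and 0.45 for miR-144-3p.

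Among 72 other miRNAs with a mean of at least 10 RPM in both fractions, those most like miR-451a were miR-16-5p (rho = 0.95), miR-93-5p (0.95), miR-17-5p (0.89), miR-486b-5p (0.85) and miR-15b-5p (0.84), where the median over the 72 was 0.01. Of these 5, all but miR-486b-5p were on a list of 13 other miRNAs abundant in red cells or their precursors. From that list miR-25-3p, miR-92a-3p, miR-20a-5p and miR-19b-3p were also among the 72, but not among these 5. For miR-486a-5p the nearest were miR-486b-5p (1.00), whose counts are nearly the same, miR-25-3p (0.92), miR-93-5p (0.87), miR-374b-5p (0.83) and miR-15b-5p (0.82), where the median was -0.03.

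Of that red cell list 12 were tested between fractions, 0 were called higher and 1 lower in EVs, namely miR-92a-3p (log2 difference -0.48 ± 0.14 SE, adjusted p = 0.0181, edgeR), and their median was -0.02 beside 0.02 over all 333 miRNAs. Together the 13 summed to 6.85% to 12.9% of miRNA counts in plasma and 6.63% to 11.5% in EVs. In the age trends 0 of the 12 were called in plasma and 0 in EVs, with median slopes of -0.02 in both.

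Markers of other cells that plasma could hold were examined beside the result for miR-486a-5p. Of 5 white cell miRNAs 4 were tested, and miR-142a-3p was called higher in EVs (0.77 ± 0.17 SE, adjusted p = 0.0016, edgeR). The uncalled miR-150-5p had -0.38 (adjusted p = 0.0646), miR-223-3p -0.08 and miR-142a-5p 0.12, and the list's median was 0.02 beside 0.02 over all miRNAs, with the list at 2.99% to 5.47% of miRNA counts in plasma and 3.27% to 5.42% in EVs. Of 5 platelet miRNAs 4 were tested, and miR-24-3p was called higher in EVs (0.38 ± 0.13 SE, adjusted p = 0.0367, edgeR). The uncalled miR-21a-5p had -0.13, miR-126a-3p 0.14 and miR-199a-3p 0.09, and the list's median was 0.12 beside 0.02 over all miRNAs, with the list at 4.80% to 9.89% in plasma and 4.49% to 12.3% in EVs and miR-197-3p at 0 throughout. Of 3 liver miRNAs all 3 were tested and 0 called, at 0.313% to 2.19% in plasma and 0.396% to 2.80% in EVs. Since miR-486 is also a muscle miRNA, the muscle list is of interest, and it was near the floor, with all 5 together at 0.883 to 8.01 RPM in plasma and 0.612 to 8.42 RPM in EVs. Of its 3 tested members 0 were called between fractions. miR-206-3p had -1.05 ± 0.52 (SE, adjusted p = 0.151, edgeR), miR-133a-3p -0.06 and miR-1a-3p 0.08. The list's median was -0.06 beside 0.02 over all miRNAs. The mean of miR-206-3p was 0.55 RPM in plasma and 0.29 RPM in EVs. The part of these cells in the levels of the 5 rows was not tested.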

How the data were processed

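Small RNA libraries were made from both fractions of each of 14 mice. The authors deposited 1 table of estimated counts without normalization, rounded here to whole numbers, and 1 table of the same counts as an RPM signal (scaled to mapped reads, as the study describes the unit), divided by 1 number per library (largest relative deviation 5.14e-06). The submitters' processing notes name mm10 and R 4.0.4. For its sequencing data in general the study's methods name miRMaster, with Bowtie mapping to miRBase for miRNAs. They do not say whether the EV and plasma libraries were handled alike.

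Groups came from the labels. Both fractions of a mouse pair because they come from 1 animal, and the deviations of its libraries from their group means correlated at -0.02 to 0.53 over 333 miRNAs. The closest replicates differed beyond counting noise (chi-square over degrees of freedom 5.03). miRNAs that reached 1 RPM in over 10% of libraries in a fraction were tested with edgeR 4.0.16 in R 4.3.3 (limma 3.58.1; TMM, glmQLFit, glmQLFTest) with Benjamini-Hochberg adjustment at 0.05, and DESeq2 1.42.0 was the other tool. Standard errors were derived from the F statistic. The fit between fractions had age as a covariate. Correlations used 100000 permutations, and ratios used all 16384 sign changes within mice (Python 3.11.15, numpy 2.4.6, pandas 2.3.3, scipy 1.17.1, matplotlib 3.10.9). These tests were tested on simulated data.

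Alternatives were other scalings, filters, codings of age and pseudocounts, the block by mouse, and leaving out mice or shallow libraries. The rule for named miRNAs took the 5 rows, the rows of miR-486b and of the antisense miR-451b, the references miR-23a-3p and miR-191-5p, the 5 miRNAs most like miR-451a and like miR-486a-5p, and called miRNAs of 5 marker lists. Members and lists were chosen with earlier results of these data known. Other RNA classes were not used here.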

Additional observations from a re-analysis of the deposited data

Results flagged for a closer look

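One pattern differed between ages: on the scale of log2 TMM-normalized CPM, miR-144-3p was higher in EVs than in plasma in every mouse at 6, 8 and 12 months (mean differences of 0.20, 0.14 and 0.37) and lower in EVs in both mice at 18 months (-0.23). The difference between single ages was not tested, and the smallest of these within-mouse differences was 0.00 (replicate 2 at 6 months). This split by age was not present in RPM. There the log2 difference was -1.02 and -0.48 in replicates 1 and 2 at 6 months. It was -0.01 in replicate 2 at 8 months and 0.41 in replicate 2 at 18 months. No library of the 6-month groups, the only ones of 4 mice, stood apart from the others in any of the 5 rows or 3 ratios by Dixon's criterion, which uses a critical value of 0.829.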

How the results depend on the processing

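The lower level of miR-486a-5p in EVs held under every alternative except RPM scaling without a block (-0.51), and leaving out 1 mouse at a time gave -0.78 to -0.68. Under the replicate block miR-486a-3p became a call (0.44, and 0.48 without the mice of uncertain pairing, 0.66 with RPM scaling, a setting chosen after seeing the data). With TMM scaling the block changed no other call of the 5 rows, while with RPM scaling it also made miR-486a-5p a call (-0.60). miR-451a reversed, uncalled, with RPM scaling (0.21), with no filter (0.032) and with RPM scaling under the block (0.0135). The arm ratio of miR-486a was -1.35 to -1.22 without any 1 mouse, that of miR-144 -0.071 to 0.0312, and the ratio of miR-451a to miR-23a-3p -0.60 to -0.44, or -0.0563 against miR-191-5p. Counts called for the age trend in plasma, 0 in the report, were 2 with DESeq2, 7 with no filter, 3 for 12 to 18 against 2 months and 8 without the 18-month mice (0 to 3 without any 1 mouse). Those in EVs, 1 in the report, were 5 with DESeq2, 0 with RPM scaling, 2 with TMM computed without red cell miRNAs, 7 with no filter, 0 with the 5 RPM filter, 5 with log2 of age, 2 for 12 to 18 against 2 months and 3 without the 18-month mice (0 to 8 without any 1 mouse). None of the 5 rows was among the calls in any of these settings. At 12 to 18 against 2 months in plasma, miR-486a-3p, miR-486a-5p and miR-144-5p had log2 differences of -1.58, -0.95 and -0.94 (adjusted p = 0.0598 each, edgeR).

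Slopes in EVs reversed with RPM scaling for miR-451a (0.0141), miR-144-3p (0.0182), miR-144-5p (0.00478) and miR-486a-5p (0.00755). Plasma slopes without any 1 mouse ran from -0.0304 to 0.00794 for miR-451a and -0.0276 to 0.00937 for miR-144-3p. Interaction slopes reversed for miR-144-5p with DESeq2 (0.0064), RPM scaling (0.0453) and scaling to miRNA reads (0.014), for miR-451a (0.0151) and miR-144-3p (0.0224) with RPM scaling, and for miR-486a-5p with the replicate block (-0.00408). Without any 1 mouse they ran from -0.0098 to 0.0157 for miR-144-5p, -0.0388 to 0.00115 for miR-451a and -0.00309 to 0.0207 for miR-486a-5p. Spearman's correlation with age reversed for miR-144-3p in plasma (-0.0157 in CPM, -0.25 as a share, -0.029 without the 18-month mice), and in EVs for miR-451a (-0.31 and -0.31), miR-144-3p (-0.46 and -0.45) and miR-486a-5p (-0.46 and -0.36, and -0.076 without the 18-month mice) in CPM and as a share. None of these passed the threshold, and the cause was not tested. Depth limits miR-486a-3p most.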
